A study of Mus musculus with 5 samples.

Results

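Chemokines are small secreted proteins that draw white blood cells along a gradient, and their receptors are G protein-coupled receptors on the cells that follow it. All genes of the deposited table whose symbols name a chemokine of the Ccl, Cxcl, Cx3cl or Xcl type or a receptor of the Ccr, Cxcr, Cx3cr or Xcr type were taken. The rule found 58 of 22609 genes, 39 ligands and 19 receptors. Expression was measured by RNA sequencing of whole mammary gland, freed of lymph nodes, from outbred mice within less than 12 hours of giving birth. The libraries were 2 of wild-type and 3 of Nfib-null mice. The Nfib gene encodes the transcription factor nuclear factor I/B, which the study examined together with STAT5, the factor that carries the prolactin signal to milk genes. The labels give no allele, Cre driver or animal age, and do not say whether Nfib was lost from all cells or from some.

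The table holds 2 columns of RPKM, read counts scaled by gene length and by the depth of the library, where each gene has 1 value per group, read here as the group mean. No value of a single library was analysed, so no difference below has a standard deviation, a test or a replicate check, and each is described by its size. The wild-type column carries the name of the wild-type libraries. The labels do not explain the other column's name, NfibFF-WC, and it was taken as Nfib-null because no other group was left. In the text, values run as Nfib-null against wild type. Nfib itself, the targeted gene, stood at 55.3 against 33.7 RPKM, so as deposited it was not less in the column taken as Nfib-null. Its log2 difference, defined below, was 0.30, and −0.32 when the columns were scaled to luminal epithelial genes. These values do not check the assignment of the column. A whole-gene RPKM can also count reads outside a deleted part, and the labels do not give that part. Library depth was estimated from low RPKM values of genes with a single annotated transcript, each taken as 1 read in 1 library. Within a preset range, the 2 depths at which most such values gathered were taken in each column. They were about 17.7 M and 14.9 M reads (M for mega) in wild type and about 33.0 M and 27.2 M reads in 2 Nfib-null libraries. The search returns 2 depths for any column, so they are approximate and the remaining Nfib-null library has no estimate. At 1 RPKM a gene of 1 kb would rest on about 32.6 reads over the wild-type group.

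Chemokines are grouped by the spacing of their first cysteines, which gives the CC, CXC, CX3C and XC names. Some are made at all times and place cells within tissues, while others are switched on by inflammation. In the mammary gland they are known for bringing macrophages and eosinophils to the growing ducts and antibody-producing plasma cells to the lactating gland. One receptor often binds several ligands, and one ligand often binds several receptors. Since the tissue was whole gland, more cells of a type and more RNA per cell cannot be told apart.

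Of the 58 genes, 30 (21 ligands and 9 receptors) reached a library-weighted mean of 1 RPKM and were kept for fold changes. A log2 difference here is log2(RPKM + 1) of Nfib-null minus that of wild type, taken once median-ratio scaling had put the columns on a common level. Adding 1 shrinks the differences of weakly expressed genes. Single RPKM values are unscaled. Higher and lower are used for differences of 2-fold or more.

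The Nfib-null column held more RNA of several CC chemokines that attract monocytes, macrophages and eosinophils, and less of a ligand and a receptor of B cell and T cell zones. Ccl6, Ccl8, Ccl24, Ccl11, Cx3cl1 and Ccl2 were at least 2-fold higher. Cxcl13 and Ccr7 were at least 2-fold lower. Thus 6 of the 30 genes (20%) were higher, where 6.95% of all 12511 genes at 1 RPKM or more were, and 2 were lower, where 5.97% of all genes were. The minimum, used for all genes alike, weights the columns by 3 and 2 libraries and so leans to genes high in Nfib-null. Among the genes past 2-fold, Ccl24 was under 1 RPKM in wild type (0.903) and Ccr7 in Nfib-null (0.667). All 6 higher genes were ligands, so that 6 of 21 ligands and 0 of 9 receptors were higher. The median log2 difference was 0.43 over the 30 genes, 0.65 over the ligands and 0.29 over the receptors, beside 0.00 over all genes. The split depended on the scaling. Unscaled RPKM gave 11 higher and 0 lower members (background, the share of all genes, 14.4% and 2.95%). With equal sums of the columns without the 20 genes of highest mean 8 were higher and 1 lower (background 9.38% and 4.38%). With scaling to luminal epithelial genes 1 was higher and 4 lower (background 2.11% and 20.7%). Quantile normalization gave 5 higher and 2 lower (background 6.75% and 5.48%).

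Other limits were tried on the median-ratio scale. A pseudocount of 0.1 gave 10 higher and 3 lower members (background 10.5% and 7.53%), and one of 5 gave 3 and 0 (background 2.77% and 3.55%). A minimum mean of 5 RPKM left 15 members, 4 higher and 1 lower (background 8.3% and 6.02%). Without a minimum the same 8 genes of all 58 were past 2-fold (background 3.76% and 3.54%). At 1.5-fold 13 members were higher and 3 lower (background 17.1% and 14.7%), and at 4-fold 1 was higher and 0 lower (background 0.727% and 1.23%).

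**Figure D1:**
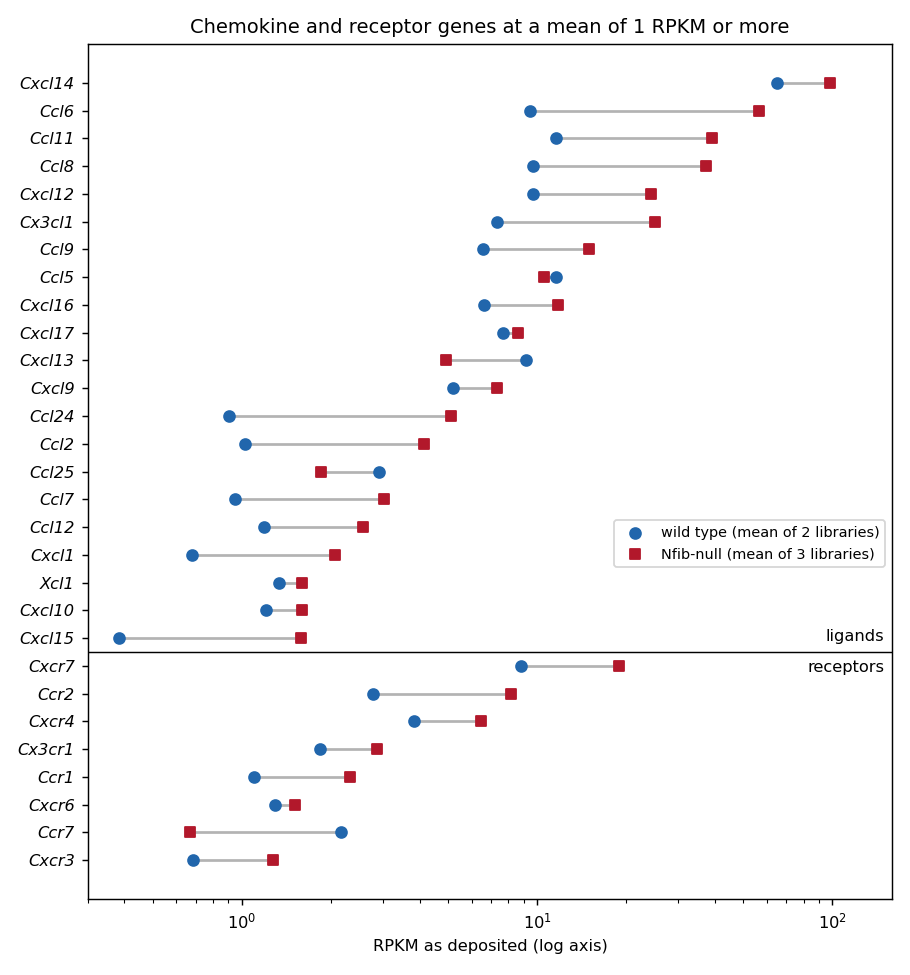
Deposited RPKM of 29 of the 30 kept chemokine and receptor genes on a log axis, ligands above receptors, with circles for the wild-type and squares for the Nfib-null group mean and a line joining both. Ccl6 spans the range from 9.44 to 56.7 RPKM, and Ccr7, Cxcl13, Ccl25 and Ccl5 are the 4 genes whose square lies to the left of the circle.

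Ligands made up most of the RNA of the family. Their summed RPKM was 367 in the Nfib-null column and 174 in the wild type, a ratio of 2.10 as deposited and 1.58 after scaling. The summed RPKM of the receptors was 48.6 against 27.7, a ratio of 1.75 as deposited and 1.32 after scaling. Cxcl14, a CXC chemokine made by epithelia, was the most abundant ligand in both columns, at 98.0 against 64.9 RPKM. It supplied 26.7% of the ligand sum in the Nfib-null column and 37.3% in the wild type. Ccl6 stood second in the Nfib-null column with 15.5% of the sum and sixth in the wild type with 5.42%. Among receptors Cxcr7, an atypical receptor that takes up Cxcl12, led both columns with 38.9% and 31.9% of the receptor sum.

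The ligands that act on macrophages and related cells included the largest difference. Ccl6, a rodent CC chemokine that acts through Ccr1, stood at 56.7 against 9.44 RPKM. Its log2 difference of 2.08 was rank 79 of 12511 genes from the top, and it was the one member past 4-fold (background 0.727%). Its neighbour Ccl9, another Ccr1 ligand, stood at 15.0 against 6.56 RPKM (log2 0.71), within 2-fold, and at 1.08 on the log2 scale as deposited. Ccl5, which T cells and others make and which binds Ccr1 and Ccr3 among others, stood at 10.6 against 11.6 RPKM (log2 −0.50, and −1.07 with luminal scaling). Ccl3 and Ccl4, inflammatory ligands made by macrophages, lay below the minimum at 0.919 against 0.620 RPKM and 0.680 against 0.509 RPKM. The 5 ligands of this group thus differed unequally, with Ccl6 alone past 2-fold. The receptor Ccr1 (2.32 against 1.10 RPKM, log2 0.41) was within 2-fold.

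The monocyte ligands were low in both columns. Ccl2, the main ligand of Ccr2, stood at 4.15 against 1.03 RPKM (log2 1.07). About 36.6 wild-type reads lay behind it, as estimated from its longest annotated transcript. Ccl7, which shares the receptor, stood at 3.02 against 0.951 RPKM (log2 0.79, about 24.8 wild-type reads), and Ccl12 at 2.58 against 1.19 RPKM (log2 0.45, about 20.8 wild-type reads). Neither reached 2-fold. Ccr2, the receptor that monocytes use to leave the blood, stood at 8.17 against 2.79 RPKM, the largest log2 difference among receptors (0.94). The log2 difference of Ccl2 came within 2-fold with quantile normalization (0.95), luminal scaling (0.66), a pseudocount of 5 (0.48) and macrophage scaling (0.17). Ccl7 passed 2-fold as deposited (1.04) and with a pseudocount of 0.1 (1.18). Ccr2 did so as deposited (1.27), with equal sums (1.08) and with a pseudocount of 0.1 (1.11).

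Of the ligands known from eosinophil recruitment and allergy, Ccl11, Ccl24 and Ccl8 were higher. Ccl11 (eotaxin), a ligand of Ccr3, stood at 39.2 against 11.6 RPKM (log2 1.28). Ccl24, also an eotaxin, stood at 5.12 against 0.903 RPKM (log2 1.41). Ccl8, which in mice acts through Ccr8, stood at 37.4 against 9.68 RPKM (log2 1.46), the second largest log2 difference of the family. These were the 3 kept of 7 ligands in the group. With luminal scaling all 3 log2 differences were within 2-fold (Ccl11 0.68, Ccl24 0.996 and Ccl8 0.87), as was that of Ccl24 with a pseudocount of 5 (0.64). With macrophage scaling Ccl8 stood at 0.18, Ccl24 at 0.50 and Ccl11 at −0.013. Their receptors were far below the minimum, with Ccr3 at 0.164 against 0.0485 RPKM and Ccr8 at 0.00822 against 0.0777 RPKM. The eosinophil granule gene Prg2 stood at 1.58 against 0.0797 RPKM and Epx, its peroxidase, at 0.0105 against 0 RPKM. Ccl22, a ligand of Ccr4, stood at 0.621 against 1.57 RPKM, just under the minimum with a mean of 0.998, while Ccl17, of the same receptor, stood at 0.295 against 0.183 RPKM. Ccr4 stood at 0.0724 against 0.129 RPKM. On the inner side of the minimum the nearest member was Cxcr3 with a mean of 1.04 RPKM.

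The membrane-anchored pair differed in degree. Cx3cl1 (fractalkine), which holds Cx3cr1-bearing monocytes and macrophages on endothelium and epithelium, stood at 25.1 against 7.33 RPKM (log2 1.27). Cxcl16, the ligand of Cxcr6, stood at 11.8 against 6.61 RPKM (log2 0.38). Their receptors differed little, with Cx3cr1 at 2.88 against 1.83 RPKM (log2 0.17) and Cxcr6 at 1.51 against 1.30 RPKM (log2 −0.11). The log2 difference of Cx3cl1 was within 2-fold with luminal scaling (0.69), a pseudocount of 5 (0.99) and macrophage scaling (0.012).

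Cxcl12, the stromal ligand of Cxcr4 that retains blood cells in tissue, stood at 24.2 against 9.69 RPKM (log2 0.86). Its scavenging receptor Cxcr7 stood at 18.9 against 8.84 RPKM (log2 0.64) and Cxcr4 at 6.48 against 3.82 RPKM (log2 0.29). None of the 3 reached 2-fold, although Cxcl12 (1.24) and Cxcr7 (1.02) did with values as deposited, and Cxcl12 with equal sums (1.02).

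The B cell ligand Cxcl13 and the lymph node receptor Ccr7 were lower. Cxcl13, which draws B cells into follicles, stood at 4.92 against 9.17 RPKM (log2 −1.14). Its receptor Cxcr5 stood at 0.471 against 1.16 RPKM, below the minimum mean. Ccr7, which guides T cells and dendritic cells into lymph nodes, stood at 0.667 against 2.16 RPKM (log2 −1.15), the lowest log2 difference of the family. Its ligands Ccl19, Ccl21a, Ccl21b and Ccl21c were listed at 0 in both columns, so no ligand could be set beside it. The Ccl21 genes are near-identical copies, and the labels do not say how reads shared by copies were counted. Ccr6, a receptor of B cells and some T cells, stood at 0.0626 against 0.374 RPKM. As deposited, the log2 differences of Cxcl13 (−0.78) and Ccr7 (−0.92) were within 2-fold, as they were with a pseudocount of 5 (−0.75 and −0.43), and that of Cxcl13 was with equal sums (−0.99).

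Mucosal ligands were few. Ccl25, a ligand of Ccr9 best known from thymus and small intestine, stood at 1.86 against 2.92 RPKM (log2 −0.74, but −1.17 with luminal scaling and −1.02 with a pseudocount of 0.1). Ccl27a, a skin ligand of Ccr10, stood at 0.416 against 0.933 RPKM, and Ccr10, which plasma cells of mucosal tissues carry, at 1.11 against 0.547 RPKM. Ccl28, the Ccr10 ligand known to bring IgA plasma cells to the lactating gland, was listed at 0 in both columns. Ccl20, the ligand of Ccr6, had 0.865 RPKM in Nfib-null and was listed at 0 in wild type. Ccr9 stood at 0.0905 against 0.199 RPKM.

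Neutrophil-attracting and interferon-induced CXC ligands showed no difference of 2-fold. Cxcl1, a ligand of Cxcr2, stood at 2.07 against 0.677 RPKM (log2 0.65, about 41.2 wild-type reads), and Cxcl15 at 1.58 against 0.384 RPKM (log2 0.72, about 26.6 wild-type reads). Both passed 2-fold with a pseudocount of 0.1 (1.11 and 1.44), and their deposited ratios were 3.06 and 4.12. Cxcl2 (0.197 against 0.115 RPKM), Cxcl3 and Cxcl5 were far below the minimum, and the receptor Cxcr2 stood at 0.853 against 0.956 RPKM. Of the ligands of Cxcr3, Cxcl9 stood at 7.31 against 5.21 RPKM (log2 0.07) and Cxcl10 at 1.60 against 1.21 RPKM (log2 −0.0042), while Cxcl11 stayed at 0.117 against 0.0595 RPKM. Cxcr3 itself stood at 1.27 against 0.684 RPKM (log2 0.23). Among the remaining ligands Cxcl14 (log2 0.18), Cxcl17, a mucosal chemokine (8.60 against 7.69 RPKM, −0.22), and Xcl1, a ligand of dendritic cells (1.59 against 1.33 RPKM, −0.09), were within 2-fold.

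The 28 members below the minimum were 18 ligands and 10 receptors. Of these, 7 were listed at 0 in both columns, namely Ccl19, Ccl21a, Ccl21b, Ccl21c, Ccl26, Ccl27b and Ccl28, as were 4088 genes of the whole table. The other 21 lay between 0.00822 and 1.11 RPKM in the Nfib-null column and between 0 and 1.57 RPKM in the wild type. A value of 1 RPKM or more in either column was held by 3 of them, Ccl22, Ccr10 and Cxcr5.

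**Figure D2:**
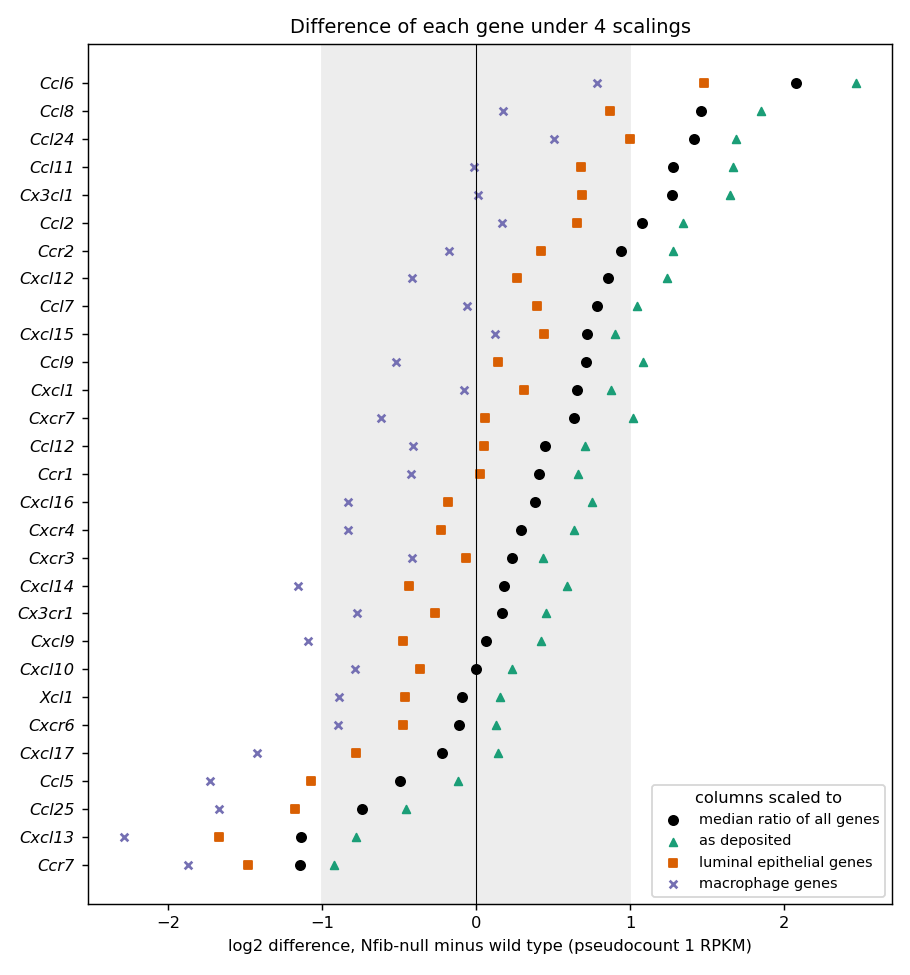
Log2 difference, Nfib-null minus wild type, of 29 of the 30 genes under 4 scalings of the columns, with the range within 2-fold shaded. Ccl6 lies at 2.08 with median-ratio scaling, 2.46 as deposited, 1.48 with luminal and 0.79 with macrophage scaling, and Cxcl13 and Ccr7 lie below 0 under all 4.

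The chemokine genes were set beside markers of the cells that make or follow them. Of 13 macrophage genes 9 were higher and 0 lower, with a median log2 difference of 1.27, and none was listed at 0. With luminal scaling 2 were higher and 0 lower (median 0.66, background 2.11% and 20.7%). The 9 higher with median-ratio scaling were Cd14 (639 against 74.2 RPKM), Lyz2, C1qa, C1qb, C1qc, Cd68, Csf1r, Cd163 and Mrc1. The summed RPKM of the list was 1431 against 312, of which Cd14 alone held 639 against 74.2. Cd14 also had the largest log2 difference of the list (2.68), ahead of Cd68 (1.65). When the columns were scaled to that list, an alternative added with the values known, 0 of the 30 chemokine genes were higher and 7 lower (background 0.544% and 59.9%). Ccl6 then stood at 0.79, Ccl24 at 0.50 and Ccl11 at −0.013 on the log2 scale. The part of macrophage number in the higher ligands was not tested. Of the eosinophil and mast cell list 4 of 9 genes were kept. The mast cell genes Tpsb2 and Cma1 were higher, Mcpt4, the most abundant, stood at 20.5 against 7.71 RPKM, and the summed RPKM of the list was 65.7 against 22.7. With luminal scaling Tpsb2 (log2 0.58) and Cma1 (0.50) were within 2-fold. Of the genes below the minimum, Siglec5 stood at 0.124 against 0.0680 RPKM and the mast cell receptor gene Ms4a2 at 0.0905 against 0.0661 RPKM. No gene of the neutrophil list differed by 2-fold (4 kept, median 0.06, summed RPKM 582 against 616), and most of that sum was lactoferrin (Ltf, 566 against 605 RPKM), which mammary epithelium also makes. The part of mast cells and eosinophils in the higher values of Ccl8, Ccl11 and Ccl24 was not tested.

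Several lymphocyte markers were lower, as Cxcl13 and Ccr7 were. Of 7 B and plasma cell genes kept, 4 were lower, among them Cd79a, Cd79b and Ms4a1, and Igj, the J chain gene of plasma cells, was higher (109 against 36.3 RPKM), with a median log2 difference of −1.04. As deposited 2 were lower and 1 higher (background 2.95% and 14.4%), and with luminal scaling 5 and 0 (background 20.7% and 2.11%). Of 11 T and NK cell genes Cd8a, Cd8b1 and Lck were lower and 0 higher (median −0.80, with 1 lower as deposited and 6 with luminal scaling). Thy1, the most abundant of them and also made by other cells, stood at 35.8 against 18.4 RPKM. None of the genes of either list was listed at 0, and the summed RPKM was 131 against 62.9 for the B and plasma cell list and 58.4 against 49.0 for the T and NK cell list. Their part in the lower values of Cxcl13 and Ccr7 was not tested. No gene of the dendritic list was past 2-fold (5 kept, median 0.39, Itgax the most abundant at 6.84 against 2.89 RPKM).

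Other cells of the gland can make chemokines too. All 10 fat cell genes were higher (median 1.91, Fabp4 the most abundant), as were 11 of 12 fibroblast genes, all but Pdgfrb (median 1.47, Col3a1 the most abundant). With luminal scaling all 10 fat cell genes and 2 of the 12 fibroblast genes were higher (background 2.11%). Of 5 lymphatic genes Lyve1 and Pdpn were higher, while Prox1 (log2 −0.68) and Flt4 (−0.28) lay below 0 and Reln was the median (0.43). Of 18 luminal genes 6 were higher, among them Krt7, Cldn3, Cldn4, Elf3 and Kit, and Elf5, the most abundant, lower (median 0.62). The list was split, with 11 log2 differences above 0 and 7 below, from −1.56 to 2.89. Among those below 0 were Muc1 (−0.87) and Ehf (−0.86). Luminal scaling rests on the median of these unlike genes. Of 10 endothelial genes (median 0.0029, Cdh5 the most abundant) and 10 basal genes (median 0.15, Acta2 the most abundant) 0 were past 2-fold. The part of these cells in the chemokine values was not tested.

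**Figure D3:**
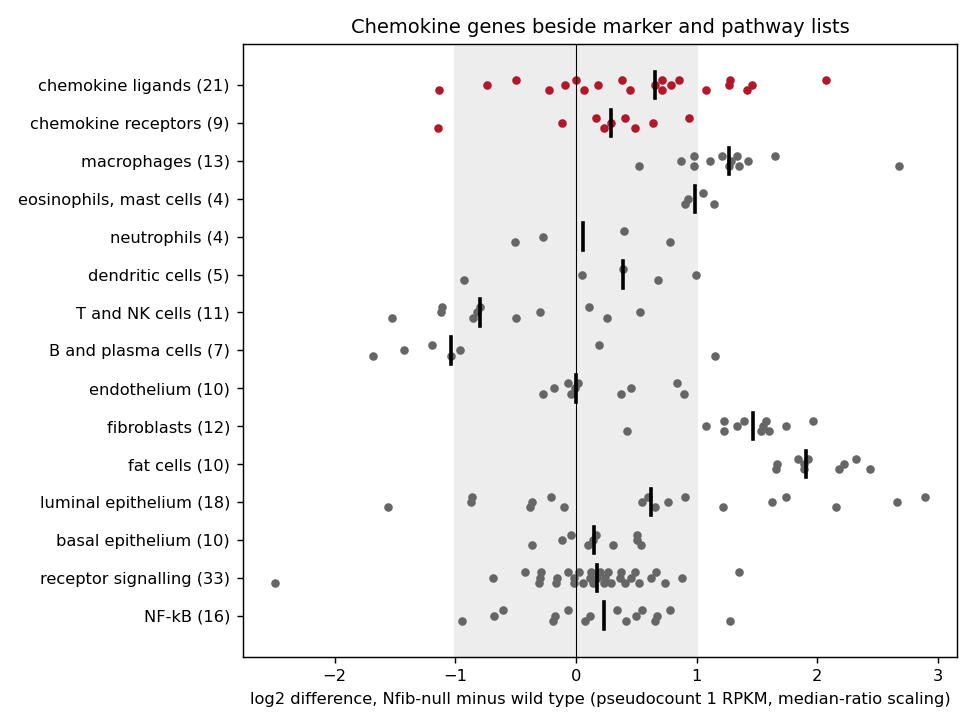
Log2 difference, Nfib-null minus wild type after median-ratio scaling, of each kept gene (points) and the median (bars) for chemokine ligands and receptors and for 13 marker and pathway lists, with the number of kept genes in brackets and the range within 2-fold shaded. The ligand median of 0.65 lies below the macrophage median of 1.27, and the B and plasma cell median lies at −1.04.

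Genes of the same pathway outside the family's symbols were examined by lists. Of 6 kept atypical and chemokine-like receptors 2 were higher and 0 lower (median 0.91). These were Cmklr1, the chemerin receptor of macrophages (26.4 against 7.88 RPKM, log2 1.25), and Ccrl2, which presents chemerin (5.32 against 0.952 RPKM, log2 1.42). The scavenging receptors Darc (log2 0.90) and Ccbp2 (0.92), which clear inflammatory chemokines, were just within 2-fold. Pf4, a CXC chemokine of platelets and macrophages, stood at 25.8 against 7.26 RPKM (log2 1.32). The machinery inside the cell differed little, with 1 of 33 signalling genes higher and 1 lower (median 0.17, Cdc42 the most abundant). The higher one was Rgs1, a brake on receptor signalling in lymphocytes (3.82 against 0.599 RPKM, log2 1.35), and the lower one was Rgs16, a related brake (4.16 against 21.7 RPKM, log2 −2.49).

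Among 16 kept genes that cut, shed or hold chemokines the metalloproteinase genes Mmp2 (log2 1.38), Mmp14 (1.23) and Mmp12 (1.06) were higher. Ext1, an enzyme of heparan sulfate synthesis, was lower (−1.21), and Sdc4, the most abundant, was within 2-fold. Of 16 NF-kappaB genes Relb was higher (12.1 against 3.24 RPKM, log2 1.27) and 0 lower (median 0.23, Nfkbia the most abundant). Only 5 of 18 genes of chemokine-inducing cytokines were kept, and of these Il18 was higher (3.71 against 0.951 RPKM, log2 1.01), Ltb, the lymphotoxin subunit needed for lymphoid tissue, was lower (1.65 against 5.67 RPKM, log2 −1.63), and Csf1 was the most abundant (13.9 against 10.6 RPKM).

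Many of the members sit side by side on the chromosomes, in the order of the RefSeq annotation of GRCm38.p6. Ccl2, Ccl7, Ccl11, Ccl12, Ccl8 and Ccl1 follow one another on chromosome 11 with 0 other coding genes between them. Of the 5 kept genes of this run 3 were higher and 0 lower (background 6.95% and 5.97%), and all 5 log2 differences lay between 0.45 and 1.46. With luminal scaling none of the 5 was past 2-fold, and the log2 differences lay between 0.049 and 0.87 (background 2.11% and 20.7%). The levels within the run were unequal, with Ccl1 at 0.0396 against 0.0559 RPKM at its end. A second run on chromosome 11 holds Ccl5, Ccl9, Ccl6, Ccl3 and Ccl4. There Ccl6 was higher while Ccl5, 2 places away, had a log2 difference of −0.50. On chromosome 8 Cx3cl1 lies between Ccl22 and Ccl17, and the deposited ratio of Cx3cl1 was 3.43 while Ccl22, below the minimum, stood at 0.621 against 1.57 RPKM. A receptor run on chromosome 9 includes Ccr9, Cxcr6, Xcr1, Ccr1, Ccr3 and Ccr2. Of these, Cxcr6, Ccr1 and Ccr2 were kept, none was past 2-fold, and Ccr2 had the largest log2 difference.

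**Figure D4:**
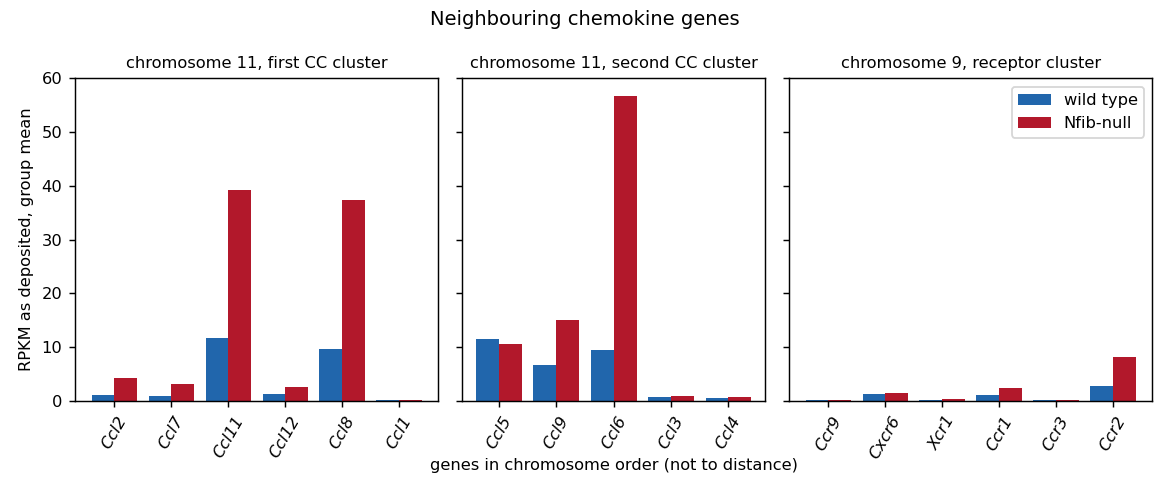
Deposited RPKM (linear axis from 0) of neighbouring genes in chromosome order in 3 runs, the receptor run at the right, with a bar for the wild-type and a bar for the Nfib-null group mean. Ccl11, Ccl8 and Ccl6 stand out in the Nfib-null column, while Ccl1, Ccl3 and Ccl4 lie below 1 RPKM in both columns beside them.

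The 250 bases before the annotated start were read from RefSeq (GRCm38.p6) for members with an entry, 41 of 58, of which 20 were kept. They are shown for Ccl6 and its neighbour Ccl9, for Ccl8 and Cx3cl1 as other genes with large differences, and for Cxcl13 as the ligand on the lower side. Their values were known when they were chosen. Letters run 5′ to 3′ on the strand of the gene. Capitals mark the TATA box motif TATAAA. They also mark the core of a nuclear factor I site, TTGGC, and an NF-kappaB site, all on either strand.
Ccl6 (chr11:83593088-83593337, minus strand): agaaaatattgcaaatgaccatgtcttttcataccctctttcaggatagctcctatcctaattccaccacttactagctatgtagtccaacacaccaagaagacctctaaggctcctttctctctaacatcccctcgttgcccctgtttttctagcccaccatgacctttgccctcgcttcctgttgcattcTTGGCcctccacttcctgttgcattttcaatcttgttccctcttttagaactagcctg
Ccl9 (chr11:83578637-83578886, minus strand): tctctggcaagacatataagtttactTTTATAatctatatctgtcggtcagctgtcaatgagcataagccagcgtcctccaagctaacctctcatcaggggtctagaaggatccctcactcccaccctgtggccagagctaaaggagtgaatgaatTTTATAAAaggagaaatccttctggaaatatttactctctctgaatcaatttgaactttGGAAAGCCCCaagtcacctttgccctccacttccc
Ccl8 (chr11:82114935-82115184, plus strand): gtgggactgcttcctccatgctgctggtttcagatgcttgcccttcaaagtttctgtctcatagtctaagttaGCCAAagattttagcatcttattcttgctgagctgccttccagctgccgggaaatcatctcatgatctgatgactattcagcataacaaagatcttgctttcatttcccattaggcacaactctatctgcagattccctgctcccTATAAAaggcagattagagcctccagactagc
Cx3cl1 (chr8:94771930-94772179, plus strand): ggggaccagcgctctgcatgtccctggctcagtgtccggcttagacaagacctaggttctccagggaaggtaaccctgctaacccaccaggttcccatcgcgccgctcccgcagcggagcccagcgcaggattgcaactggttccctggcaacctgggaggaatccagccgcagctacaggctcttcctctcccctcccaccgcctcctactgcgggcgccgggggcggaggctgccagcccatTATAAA
Cxcl13 (chr5:95956689-95956938, plus strand): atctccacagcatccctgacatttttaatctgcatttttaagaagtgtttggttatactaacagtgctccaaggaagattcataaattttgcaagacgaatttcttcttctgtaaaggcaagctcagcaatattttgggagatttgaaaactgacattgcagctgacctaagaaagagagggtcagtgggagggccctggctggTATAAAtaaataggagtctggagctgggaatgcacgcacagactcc

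TATAAA stood 27 to 32 bases before the start in Ccl8, 41 to 46 in Cxcl13 and 1 to 6 in Cx3cl1, and 87 to 92 in Ccl9, where the reverse strand matched at 2 places too, one of them overlapping. No TATAAA was found in the Ccl6 window. TTGGC was found in Ccl6 at 54 to 58 bases before the start and, on the reverse strand, in Ccl8 at 173 to 177, and in neither Cx3cl1, Ccl9 nor Cxcl13. An NF-kappaB site was found in Ccl9 alone of these 5. Over the 20 kept members with a window, 9 (45%) held TATAAA, beside 12.4% of all 32851 windows of that length. A member counted for a motif if any window under its symbol held it, while the background counts single windows. The shares of members and of windows are thus in unlike units, here and for the motifs that follow. TTGGC was held by 9 (45%), beside 41.5%, and the NF-kappaB site by 3, Ccl9, Cxcl1 and Cxcl10 (15%), beside 5.93%. The STAT-type site TTCNNNGAA was held by 1, Cxcl14 (5%), beside 7.02%, and the full nuclear factor I palindrome, TTGGC and its inverted copy spaced by 5 bases, so that it overlaps TTGGC, by 0, beside 0.0365%. All motifs were searched on both strands.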

How the data were processed

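Poly(A) RNA of mammary gland was sequenced from 2 wild-type and 3 Nfib-null samples, grouped by their titles. No label says that they came from separate animals. The authors deposited RPKM, 1 value per gene and group. Per the submitters' processing notes, CASAVA, TopHat and the mm9 build were used, with no version stated. How reads were counted, with which annotation and whether by strand, is not stated in the labels or the notes.

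The 12511 genes with a library-weighted mean of at least 1 RPKM were kept. Columns were divided by median-ratio factors of 1.15 (Nfib-null) and 0.867 (wild type), a pseudocount of 1 was added and log2 differences were taken with Python 3.11.15, numpy 2.4.6 and pandas 2.3.3. The scaling was tested on simulated data in which a small part of the genes changed, with equal numbers raised and lowered. That setting is unlike these data, where whole cell type lists differed, so it does not check the scaling here. With 1 value per group no test was possible. Depth was estimated from genes with a single transcript in GENCODE M21, taking the 2 most frequent depths in each column, and is approximate.

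Kept members are described by role, and a few genes are counted but not reported here by name. From each of 18 marker and pathway lists, genes at least 2-fold apart and the most abundant gene are named, and any others were chosen after their values were seen. The members and lists were chosen with earlier results of these data known. Alternatives were other scalings, pseudocounts, minima and fold limits. Scaling to macrophage genes was added after seeing the data. Coordinates belong to GRCm38.p6, not to the submitters' build.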

Additional observations from a re-analysis of the deposited data

How the results depend on the processing

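The number of members higher and lower moved with the scaling, the pseudocount and the fold limit, and stayed at 6 and 2 without a minimum mean. Against 6 higher and 2 lower, values as deposited gave 11 and 0, luminal scaling 1 and 4, macrophage scaling 0 and 7, a pseudocount of 0.1 gave 10 higher and one of 5 gave 3 and 0, a 1.5-fold limit gave 13 higher and a 4-fold limit 1 and 0. With equal sums 1 was lower, as with a minimum mean of 5 RPKM. The median of the 30 members was −0.48 with macrophage scaling and between 0.036 and 0.73 under the other alternatives, and the median of all genes shifted by 0.35 as deposited, 0.15 with equal sums, −0.54 with luminal and −1.16 with macrophage scaling. Ccl6 was positive under all 9 alternatives run on it (0.79 to 2.46) and Cxcl13 negative under all 9 (−2.29 to −0.75). Ccl11 changed sign in one, to −0.013 with macrophage scaling. Over the other lists 50 genes were higher and 11 lower (background 6.95% and 5.97%). The kept genes of these lists together were not counted. The counts of list genes here and in the next sentences are thus not shares, and cannot be read as above or below the background. Luminal scaling gave 19 and 26 (background 2.11% and 20.7%) and a 4-fold limit 8 and 1 (background 0.727% and 1.23%). A pseudocount of 5 gave 3 lower and one of 0.1 gave 17 (background 3.55% and 7.53%). Values as deposited gave 6 lower (background 2.95%) and a 1.5-fold limit 23 (background 14.7%). A minimum of 5 RPKM, which kept fewer genes, gave 3 lower (background 6.02%). Counts of single lists above are with median-ratio scaling unless stated. No paired analysis was possible because the table holds 1 value per group, and for the same reason no library could be left out. Depth limits the low members most, since Ccl12, Xcl1, Ccl7 and Cxcl15 rest on about 20.8 to 26.6 wild-type reads.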

Other observations

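The Ccr10 axis of plasma cells held a value that a reader of mammary data may want to look at again. Ccl28 was listed at 0 in both columns, and its receptor Ccr10 stood at 1.11 against 0.547 RPKM. Igj stood at 109 against 36.3 RPKM, and Tnfrsf17, another gene of plasma cells, at 0.952 against 0.367 RPKM, while the B cell gene Ms4a1 stood at 0.236 against 2.49 RPKM. Sdc1, which plasma cells and epithelium make, stood at 15.1 against 9.85 RPKM (log2 0.19), and with luminal scaling Igj had a log2 difference of 0.54 and Sdc1 one of −0.39. Ccl28 is annotated in GRCm38.p6, but the deposited values rest on mm9 with an annotation that is not stated. Why Ccl28 was listed at 0 was not tested.

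Among cytokines below the minimum, Tnf stood at 1.25 against 0.374 RPKM and Csf3, a neutrophil growth factor, at 0.585 against 0.178 RPKM. Il1b, which was kept, stood at 1.42 against 1.79 RPKM.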
